A study of Mus musculus with 10 samples.

Results

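The Hox gene clusters of mouse lung were examined in the Methyl-seq windows that overlap the RefSeq spans of 38 Hox genes, extended by 5 kb on each side. The members were chosen by name, from Hoxa2 at one end of HoxA to Hoxd13 in HoxD, and not by their methylation. Earlier results of these data were known when the list was made. All 38 had windows, and together they gave 609 of the 446336 windows of the series, of which 600 had at least 20 CpG calls in each of the 10 mice. A window is 1000 bp long and starts 500 bp after the previous one, so that neighbouring windows share calls. A CpG call is 1 read at 1 CpG that was scored as methylated or unmethylated, and methylation is given as the percentage of calls that were methylated.

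Lung DNA came from female BALB/c mice that were 8 weeks old at purchase. The saline group (n = 3) was the control and received no ovalbumin. The OVA group (n = 3) was sensitized with 50 µg of ovalbumin and alum on 2 occasions 7 days apart, then challenged through the nose with 25 µg for 4 days, a model of allergic asthma. The DSE group (n = 4, labelled Herb) was treated with ovalbumin in the same way and also received 200 mg/kg of an ethanol extract of Descurainia sophia seeds by mouth from Day 9 to Day 15, so that all OVA and DSE mice carried the ovalbumin exposure. Each library is labelled as a numbered replicate of its group. It was taken as a separate mouse, since the paper gives these group sizes for mice. Whole lung was used, and in such bulk tissue a different mixture of cell types and a different methylation within a cell type cannot be told apart.

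Hox genes encode homeodomain transcription factors that give cells their position along the body axis. In mammals they lie in 4 clusters, named HoxA to HoxD, and the order of the genes along a cluster follows the order of the body regions in which they act, from anterior to posterior. The lung keeps anterior and central Hox genes active, Hoxa5 being required for the formation of the airways, while in tissues where a Hox gene is silent its CpG-rich DNA is commonly held by Polycomb proteins at low methylation. Here paralog groups 1 to 4 are called anterior, 5 to 8 central and 9 to 13 posterior. A window was assigned to the gene whose span holds its midpoint, to the shorter span where spans overlap, and otherwise to the nearest gene. Its section is that of this gene. The long span of Hoxa3 contains Hoxa4, Hoxa5 and Hoxa6, so DNA between these genes counts as Hoxa3 and as anterior. In HoxB, DNA between Hoxb5 and Hoxb4 (such as 11:96316001-96317500) was likewise assigned to Hoxb3 and counts as anterior. Hoxb3 holds 56 of the 83 anterior HoxB windows with at least 20 calls in every mouse.

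The promoter sequences of 5 HoxA genes are shown because the comparisons below turn on this cluster, and they span its anterior, central and posterior genes. Each is the 250 bases before the RefSeq start site of GRCm38.p6, on the minus strand, written 5′ to 3′ with the CpGs in capitals, since these are the positions that the assay reads. They lie at 6:52164832-52165081 (Hoxa2), 6:52213068-52213317 (Hoxa3), 6:52204588-52204837 (Hoxa5), 6:52227371-52227620 (Hoxa9) and 6:52260881-52261130 (Hoxa13).
Hoxa2: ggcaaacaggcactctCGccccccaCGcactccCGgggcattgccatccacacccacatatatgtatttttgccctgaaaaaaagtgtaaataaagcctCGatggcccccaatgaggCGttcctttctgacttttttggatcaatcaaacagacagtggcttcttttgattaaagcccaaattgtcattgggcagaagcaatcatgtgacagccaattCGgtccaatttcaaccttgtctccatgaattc
Hoxa3: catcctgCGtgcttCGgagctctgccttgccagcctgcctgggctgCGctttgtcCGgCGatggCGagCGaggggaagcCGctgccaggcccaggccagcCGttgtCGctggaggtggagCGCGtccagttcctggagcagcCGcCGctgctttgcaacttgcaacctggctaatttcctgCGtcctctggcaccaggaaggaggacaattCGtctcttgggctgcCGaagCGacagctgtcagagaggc
Hoxa5: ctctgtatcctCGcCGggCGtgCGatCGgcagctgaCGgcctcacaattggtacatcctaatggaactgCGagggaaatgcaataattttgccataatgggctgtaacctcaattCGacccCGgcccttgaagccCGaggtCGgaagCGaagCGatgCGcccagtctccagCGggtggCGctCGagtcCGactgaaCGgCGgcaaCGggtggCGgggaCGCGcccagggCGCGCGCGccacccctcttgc
Hoxa9: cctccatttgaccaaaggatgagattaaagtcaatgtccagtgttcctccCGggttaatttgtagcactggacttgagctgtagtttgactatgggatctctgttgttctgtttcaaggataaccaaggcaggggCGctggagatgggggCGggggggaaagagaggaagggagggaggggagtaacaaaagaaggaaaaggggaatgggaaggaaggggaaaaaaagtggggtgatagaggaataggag
Hoxa13: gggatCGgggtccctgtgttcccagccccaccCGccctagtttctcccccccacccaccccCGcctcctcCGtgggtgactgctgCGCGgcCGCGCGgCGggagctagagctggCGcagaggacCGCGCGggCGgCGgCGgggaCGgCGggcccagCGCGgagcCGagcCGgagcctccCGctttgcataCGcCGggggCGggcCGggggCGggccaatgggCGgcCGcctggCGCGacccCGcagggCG

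The 5 sequences differ in how many CpGs they hold. The Hoxa13 promoter holds 35, a number reached by 2.97% of the 32851 promoters in the RefSeq table, where the median is 6. Hoxa5 holds 28 (reached by 7.61% of promoters), Hoxa3 18 (21.7%), Hoxa2 6 (50.4%) and Hoxa9 3 (71.0%). Over the 24 sequences of 22 members that the table gave, the number ranged from 2 to 35 with a median of 12.5. The windows that contain the Hoxa5 sequence had a methylation of 22.4%, 19.7% and 22.6% in the saline mice, 36.7%, 37.4% and 39.9% in the OVA mice and 38.0%, 38.7%, 35.8% and 42.8% in the DSE mice. For Hoxa2 these were 8.09%, 6.40% and 5.93%, then 13.3%, 13.4% and 17.0%, then 13.4%, 14.98%, 13.9% and 17.0%. In both genes every ovalbumin-exposed mouse was above every saline mouse. The Hoxa3 windows went the other way in the OVA mice, with 6.21%, 5.99% and 6.63% in saline, 4.13%, 4.55% and 4.38% in OVA and 7.10%, 6.78%, 7.22% and 5.52% in DSE mice. The Hoxa9 window was between 9.90% and 14.6% in all mice, with overlapping groups. The Hoxa13 windows stayed between 1.87% and 8.77% in all mice, with overlapping groups. The Hoxa3 sequence overlaps an exon of Hoxaas3, a non-coding RNA gene on the other strand.

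The clusters were far less methylated than the rest of the genome measured. The mean over all Hox windows was 16.7% ± 0.193 (SD, n = 3) in saline mice, against 51.2% ± 0.280 over all windows of the series. Windows within 5 kb of 56 developmental transcription factor genes outside the clusters, such as Pax, Tbx and Sox genes, had 15.5% ± 0.242. Among the clusters HoxB was the most methylated, at 25.5% ± 0.429, and HoxA followed with 18.2% ± 0.336. HoxD had 10.4% ± 0.249 and HoxC 9.54% ± 0.226.

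Methylation fell from the anterior to the posterior genes. Over the saline mice the anterior windows had a mean of 24.0% ± 0.447, the central ones 20.7% ± 0.0655 and the posterior ones 6.84% ± 0.0890. Of the sections, anterior HoxB was the highest (34.6% ± 0.514) and posterior HoxC the lowest (5.74% ± 0.192). In HoxA the central section, with Hoxa5 to Hoxa7, was above the anterior one, at 32.1% ± 0.899 against 21.5% ± 1.11, and the posterior section, from Hoxa9 to Hoxa13, had 8.70% ± 0.172.

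**Figure D1:**
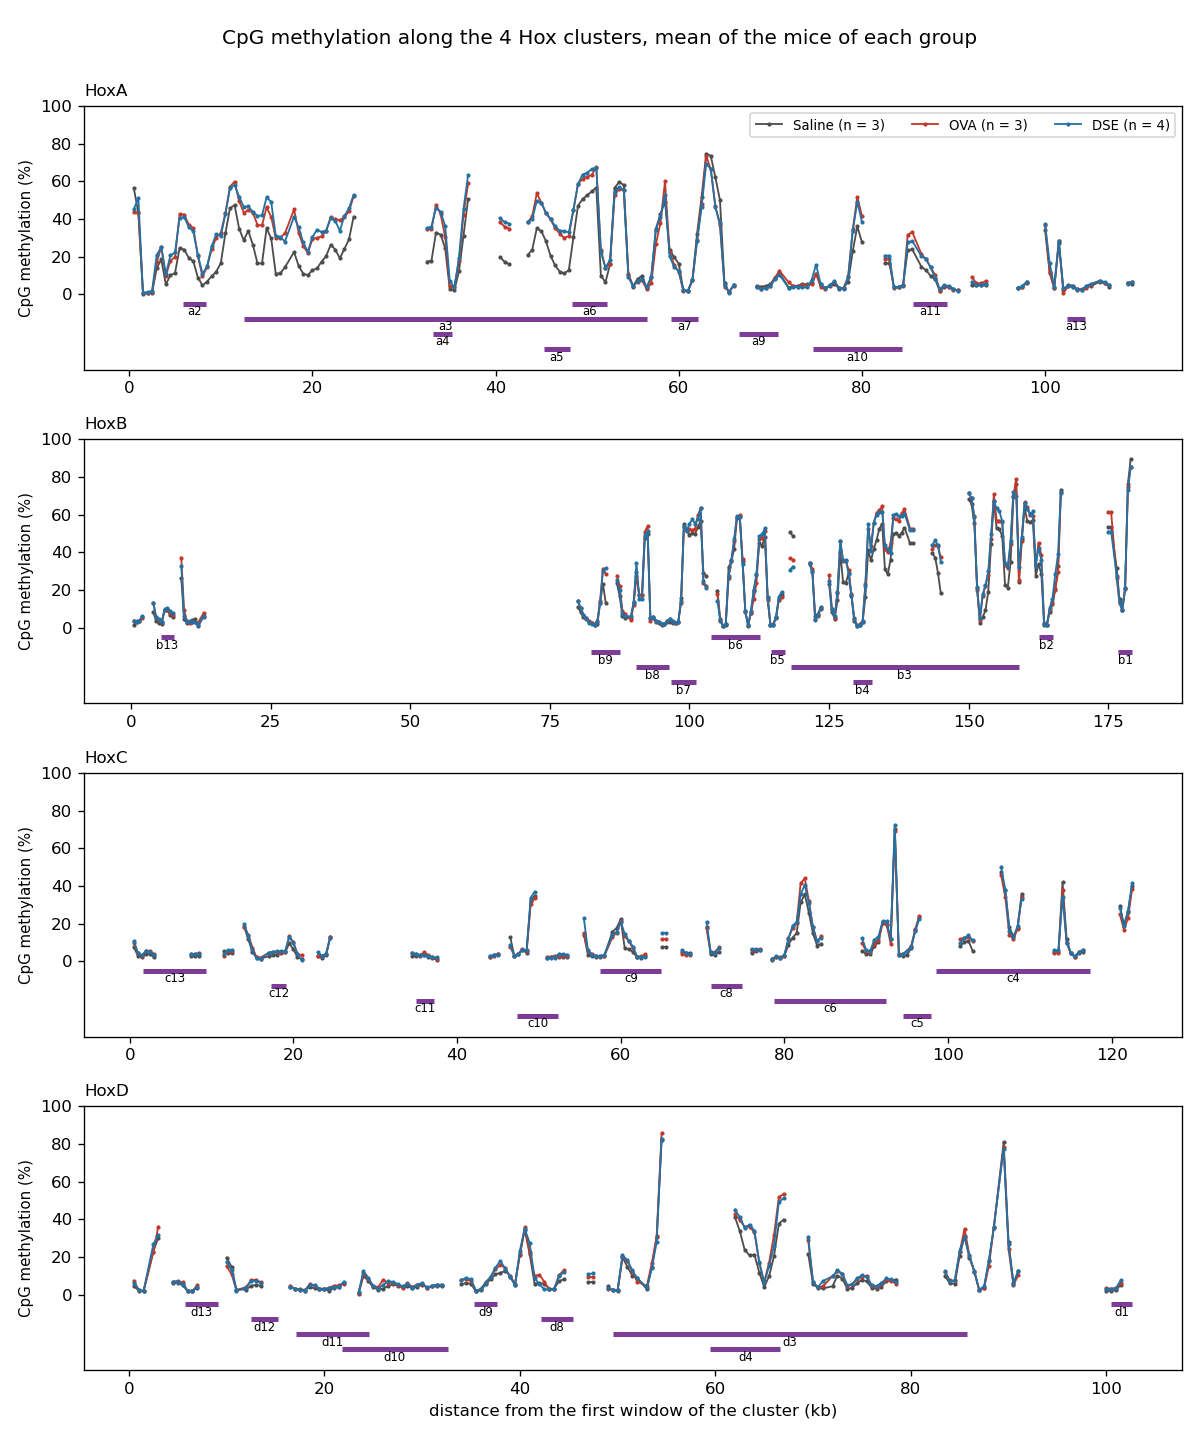
CpG methylation (%) of each window along HoxA, HoxB, HoxC and HoxD against the distance from the first window of the cluster (kb), with 1 line per group (mean of the mice) and the member genes as bars. In HoxA the lines of the OVA and DSE groups run above the saline line over most of the DNA from Hoxa2 to Hoxa6. Over Hoxa7 they are mostly below it, and over most posterior windows they lie near it, with a run above it at Hoxa10.

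Most Hox windows had low methylation. In saline mice 420 of 600 Hox windows (70.0%) were under 20%, against 22.3% of all windows. The share was 87.7% in HoxC (114 of 130), 84.0% in HoxD (110 of 131), 66.3% in HoxA (112 of 169) and 49.4% in HoxB (84 of 170). The longest unbroken run of such windows was 9500 bp in HoxD (2:74685501-74695000), 7500 bp in HoxA (6:52228001-52235500), 6500 bp in HoxB (11:96281501-96288000) and 5000 bp in HoxC (15:102936001-102941000). These 4 runs had the same limits in the OVA and DSE means. The share of windows under 20% was 48.5% in the OVA group and 45.6% in the DSE group for HoxA, a loss of 30 and 35 windows, while it was 46.5% in both groups for HoxB, 86.9% and 84.6% for HoxC and 83.2% and 82.4% for HoxD. Over the whole series it was 21.4% and 20.8%.

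Single genes covered a wide range in saline mice. The locus of a gene is the mean of the windows over its span and 5 kb on each side, and its promoter is the mean of the windows that reach within 1 kb of a RefSeq start site. The lowest loci of the clusters were Hoxc11 (2.36% ± 0.0623), Hoxd1 (3.00% ± 0.264), Hoxb13 (5.66% ± 0.981) and Hoxa13 (7.51% ± 0.402), the last a gene of digit and genital development. The highest were Hoxb1 (43.8% ± 3.61), which patterns the hindbrain, Hoxa5 (29.5% ± 1.42), Hoxd4 (23.1% ± 1.19) and Hoxc4 (18.1% ± 1.20). The lowest promoters were Hoxc11 (2.81% ± 0.0880), Hoxd1 (3.00% ± 0.264), Hoxb9 (3.32% ± 0.207) and Hoxa13 (3.52% ± 0.353), and the highest Hoxb3 (45.05% ± 1.27), Hoxa7 (40.3% ± 2.65), Hoxc5 (17.2% ± 1.95) and Hoxd8 (7.55% ± 0.95995). Hoxd4 had no promoter window, and the promoter of Hoxd1 uses the same windows as its locus.

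A few windows inside the clusters were highly methylated. The highest in HoxB, at the end of Hoxb1 (11:96367501-96368500, 753 bp of non-coding exon), had 91.7%, 87.7% and 89.1% in the saline mice. In HoxD it was an intron of Hoxd3 (2:74716501-74717500) with 81.8%, 78.0% and 85.9%, and in HoxA a stretch between transcripts nearest to Hoxa7 (6:52219001-52220000) with 72.5%, 81.5% and 70.3%. In HoxC it was a stretch between transcripts nearest to Hoxc5 (15:103012501-103013500) with 82.9%, 65.2% and 62.5%. None of the 4 passed limma in any comparison (lowest adjusted p = 0.125).

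The effect of ovalbumin given with alum was examined by OVA vs. saline. In the paper the controls were injected with saline only, so ovalbumin and alum cannot be told apart. The anterior and central part of HoxA was more methylated in the OVA mice, over most of the DNA from Hoxa2 to Hoxa6, while few windows of posterior HoxA and of HoxC were called. A window was called by the likelihood ratio test of a logistic model when its adjusted p was under 0.01 and the pooled percentages differed by at least 10 percentage points. Of 606 Hox windows tested, 87 rose and 4 fell (14.4% and 0.660%), where 4.75% of all windows rose and 2.56% fell. HoxA held 64 of the 87, HoxB 16, HoxD 6 and HoxC 1. By section, 49 of 77 windows rose in anterior HoxA, 12 of 27 in central HoxA and 3 of 66 in posterior HoxA, and the median difference over the windows was 12.2, 8.78 and 0.380 percentage points. All 16 in HoxB and all 6 in HoxD were anterior, and 13 of the 16 were assigned to the long span of Hoxb3.

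The likelihood ratio test leaves out the spread between mice. limma on the log2 ratio of methylated to unmethylated calls (M-value), which uses it, gave 68 higher and 3 lower Hox windows of 600 at an adjusted p under 0.05, where it called 2.25% of all windows higher and 1.49% lower. A stricter F test with a scale factor for the spread called 0 of 606 at 0.01 (175 had an unadjusted p under 0.05, lowest adjusted p = 0.237).

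The calls ran on in blocks. The 87 windows formed 19 runs, the longest of 16500 bp with 31 windows over Hoxa2 and Hoxa3 (6:52165001-52181500), where the mean was 22.9% ± 2.34 in saline, 38.3% ± 3.36 in OVA and 39.4% ± 3.47 in DSE mice. A run of 7500 bp with 14 windows covered Hoxa5 and its surroundings (6:52199001-52206500), at 26.3% ± 1.92, 42.9% ± 1.28 and 43.4% ± 3.01. A run of 3000 bp covered Hoxa2 itself (6:52161501-52164500), at 18.9% ± 0.423, 35.5% ± 2.43 and 34.3% ± 3.21. In posterior HoxA the 3 windows that rose were 1 run of 2000 bp at Hoxa10 (6:52235001-52237000), at 29.0% ± 1.55, 42.7% ± 1.76 and 40.4% ± 2.98.

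**Figure D2:**
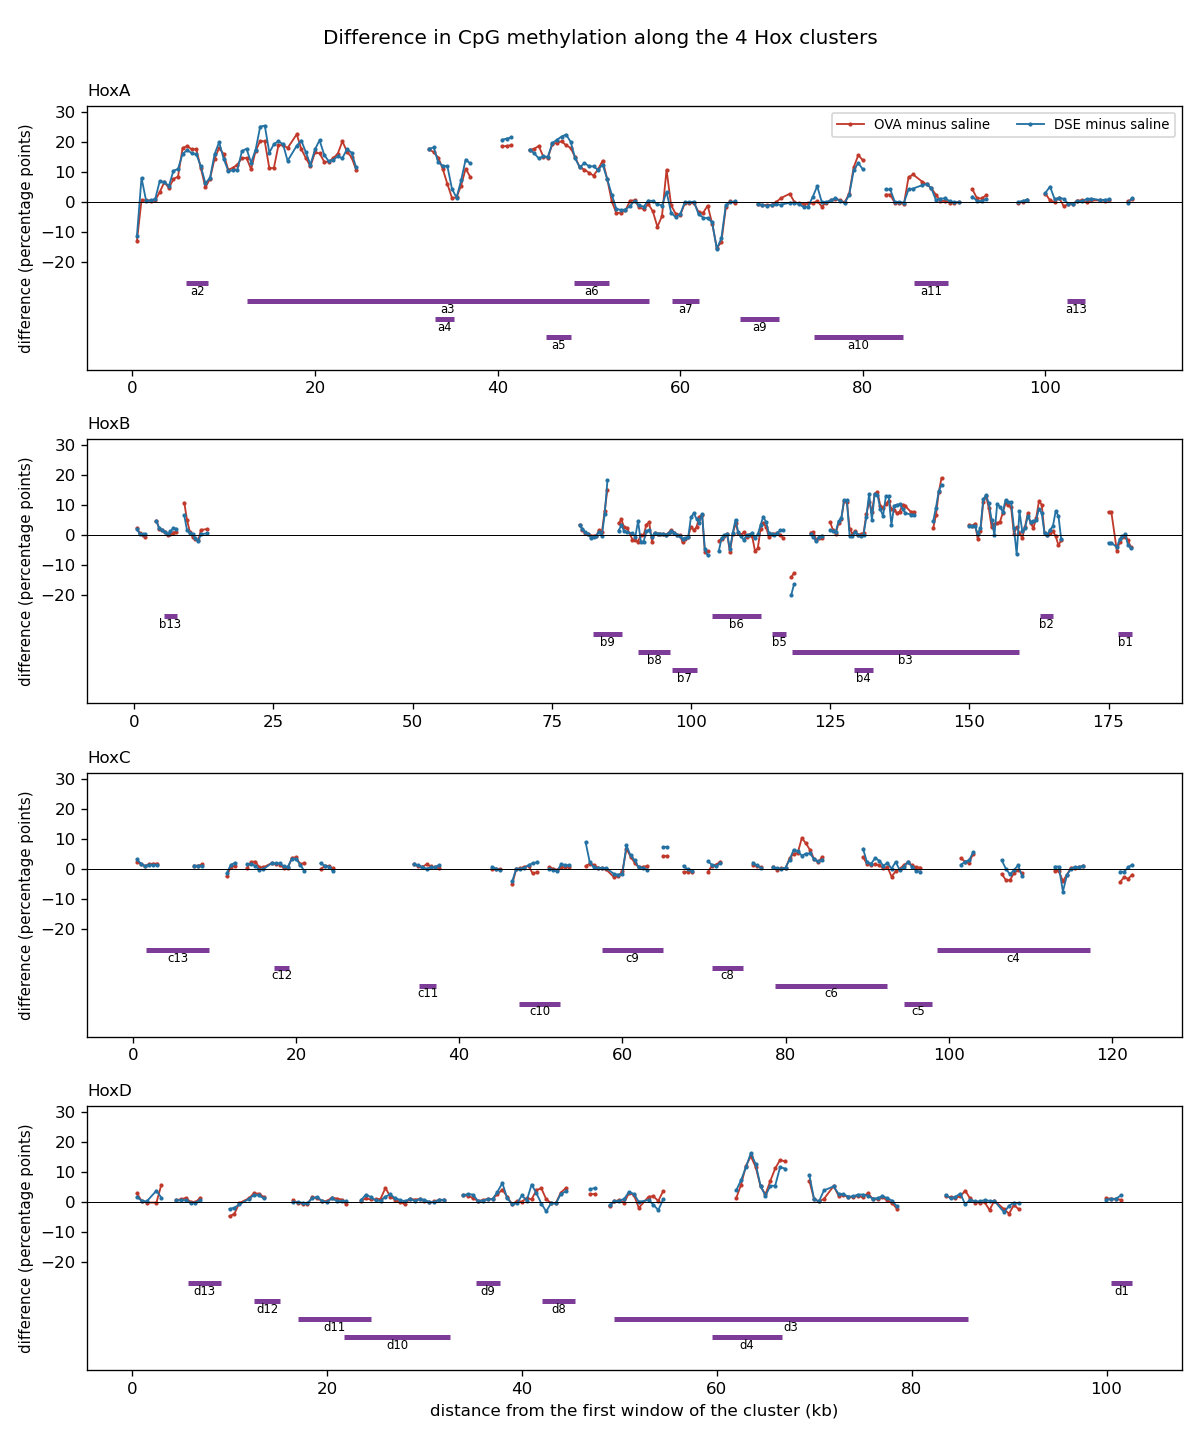
Difference in methylation (percentage points) of each window along the 4 clusters, as OVA minus saline and DSE minus saline (differences of group means), against the distance from the first window (kb), with the member genes as bars. Both lines are raised over the anterior part of HoxA, where the section mean was 10.4 points above saline in OVA and 11.5 points in DSE mice.

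All 6 windows assigned to Hoxa5 rose. The window over its start (6:52204001-52205000, 84 CpGs, with exons of Hoxa5 and Hoxa6) had 12.5%, 12.4% and 13.99% in saline mice, 30.6%, 29.3% and 32.9% in OVA mice and 32.9%, 32.9%, 28.9% and 37.1% in DSE mice. It had the lowest limma adjusted p of the Hox windows in OVA vs. saline (adjusted p = 0.0191 for OVA vs. saline and 0.00711 for DSE vs. saline), and the lowest ovalbumin-exposed mouse was more than 10 points above the highest saline mouse. The window next to it (6:52203501-52204500) had 11.1%, 11.02% and 11.2%, then 29.2%, 26.6% and 34.3%, then 34.1%, 36.1%, 27.7% and 36.4%. Further windows of Hoxa5 at 6:52203001-52204000 and 6:52202501-52203500 had adjusted p = 0.0198 each.

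Hoxa3, which shapes the thymus and other organs of the pharynx, rose in 39 of the 53 windows assigned to it. Some of these lie between the shorter genes inside its span. A window with 149 bp of its coding sequence (6:52172501-52173500) had 10.4%, 8.8% and 14.5% in saline, 28.2%, 32.7% and 29.6% in OVA and 28.8%, 30.04%, 28.4% and 34.7% in DSE mice (adjusted p = 0.0198 and 0.00791), and the overlapping window at 6:52172001-52173000 had the same 2 adjusted p-values. A window with 742 bp of coding sequence (6:52170001-52171000) had 18.8%, 16.8% and 13.97%, then 30.6%, 40.8% and 39.3%, then 38.8%, 45.9%, 37.6% and 44.5% (0.0210 and 0.00791). A window at 6:52174501-52175500, mainly intron, was at 14.1% to 16.8% in saline and 29.6% to 40.3% in the other mice (0.0207 and 0.00791). In each of them every saline mouse was below every exposed mouse, while the OVA and DSE mice overlapped.

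Hoxa2, a gene of the hindbrain and the second pharyngeal arch, rose in 8 of 20 windows and Hoxa6 in 5 of 8. The window before the Hoxa2 start (6:52165001-52166000) had 9.8%, 9.5% and 9.5% in saline, 20.5%, 23.9% and 27.5% in OVA and 21.6%, 29.1%, 24.4% and 26.9% in DSE mice (adjusted p = 0.0198 and 0.00784), and the next one (6:52165501-52166500) had adjusted p = 0.0198 and 0.00791. In Hoxa6 a window with 315 bp of coding sequence (6:52207501-52208500) had 11.2%, 9.9% and 8.9%, then 24.5%, 23.9% and 23.0%, then 22.6%, 26.5%, 19.6% and 21.0% (0.0198 and 0.00819). The next window (6:52208001-52209000) went from 6.2% to 6.8% in saline to 12.4% to 15.9% in the exposed mice, which is under 10 points and so was not called by the likelihood ratio test.

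The largest difference in HoxA was in an intron of Hoxa3 (6:52199001-52200000), with 47.4%, 39.4% and 35.3% in saline, 56.0%, 67.6% and 72.7% in OVA and 77.3%, 64.9%, 69.0% and 69.0% in DSE mice. It rests on 19 to 77 calls per mouse, a mouse with under 20 calls was dropped from the test, and the call of OVA vs. saline was lost without OVA replicate 2 or OVA replicate 3. At 20 calls a true 50% has a 95% Wilson interval of 29.9% to 70.1%, while at 1445 calls, the median depth of a Hox window, a value of 20% has one of 18.0% to 22.1%. These intervals cover counting error only.

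The windows that fell were few. In HoxA the largest fall lay between Hoxa7 and Hoxa9, outside any transcript (6:52220001-52221000), with 63.2%, 64.8% and 58.2% in saline, 45.9%, 50.6% and 43.7% in OVA and 49.97%, 42.8%, 47.8% and 45.2% in DSE mice (limma adjusted p = 0.0317 and 0.0162). The saline mice were all above the others. A single window near Hoxa2 (6:52156501-52157500) also fell, from 56.4% ± 7.01 to 43.5% ± 5.998, and 1 in HoxB (11:96306501-96307500), from 50.8% ± 10.96 to 36.8% ± 3.99, where the saline mice were widely spread.

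Outside HoxA the calls were scattered. In HoxB the largest rise was in an intron of Hoxb3 (11:96333501-96334500), with 16.1%, 17.0% and 21.8% in saline, 33.3%, 41.4% and 37.5% in OVA and 29.6%, 39.9%, 39.1% and 32.1% in DSE mice (limma adjusted p = 0.0228 and 0.0141). The longest HoxB run was 4500 bp over Hoxb4 and Hoxb3 (11:96320501-96325000), from 40.3% ± 2.30 to 52.2% ± 4.41. Hoxb4 is known for expanding blood stem cells. Central and posterior HoxB had 0 calls of 53 and of 36 by the likelihood ratio test (limma: also 0, with 6 unadjusted p under 0.05 in each). In HoxC the only called window, between transcripts near Hoxc6 (15:103001001-103002000), had 27.8%, 37.7% and 28.2% in saline and 41.9%, 43.7% and 39.1% in OVA mice. It did not pass limma (adjusted p = 0.108), which called 2 posterior HoxC windows instead, and the call was lost without saline replicate 1, saline replicate 3 or OVA replicate 2.

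The microRNA genes Mir10a and Mir10b belong to one family and lay in called windows, Mir10a between the HoxB genes and Mir10b beside Hoxd4. Their 5p sequences in RefSeq are shown with the seed (bases 2 to 8) in capitals, because the seed is the same in both and pairs with target RNAs. miR-10a-5p lies at 11:96317186-96317208 and miR-10b-5p at 2:74726074-74726096.
miR-10a-5p: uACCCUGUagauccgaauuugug
miR-10b-5p: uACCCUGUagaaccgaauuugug

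Among the called HoxD windows in which saline and OVA mice did not overlap, 1 that holds Mir10b had the largest rise. At 2:74725501-74726500 methylation was 19.4%, 20.1% and 23.0% in saline, 29.5%, 38.8% and 40.2% in OVA and 41.2%, 42.2%, 27.995% and 37.6% in DSE mice. limma gave an adjusted p = 0.0506 for OVA vs. saline and 0.0255 for DSE vs. saline. The window that starts 500 bp later had 20.9%, 21.7% and 21.3%, then 29.5%, 34.9% and 34.7%, then 35.3%, 35.5%, 28.3% and 36.9% (0.0359 and 0.0165). One of the windows that hold Mir10a (11:96316501-96317500) had 24.2%, 25.9% and 22.1%, then 31.2%, 35.5% and 39.0%, then 34.3%, 38.6%, 33.5% and 36.9% (0.0401 and 0.02002), but the window that starts 500 bp later was not called, with 28.9%, 30.05% and 27.6% in saline and 29.9%, 31.8% and 31.1% in OVA mice. The Mir10a window was chosen because it holds the gene, after its values were seen.

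Per gene, limma on the M-value of the locus gave 13 higher and 1 lower of 38 members at an adjusted p under 0.05 in OVA vs. saline, where 9.14% of 32824 loci were higher and 3.28% lower. The median difference over the members was 1.30 percentage points, against 1.02 over all genes. Hoxa5 had the largest rise and the lowest p. Its locus was at 30.4%, 27.8% and 30.1% in saline, 41.2%, 43.7% and 43.1% in OVA and 41.7%, 45.6%, 41.6% and 45.1% in DSE mice. The rise was 13.2 percentage points (95% interval 10.3 to 16.1), or 0.82 ± 0.08 (SE) as a log2 change of the M-value (adjusted p = 0.00231). The saline and OVA mice did not overlap, so the exact permutation test gave 0.1, the smallest p that 3 mice against 3 allow.

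The next 4 loci were its neighbours. Hoxa3 had 23.4%, 22.3% and 24.6% in saline and 31.7%, 34.9% and 35.1% in OVA mice (rise of 10.4 points, adjusted p = 0.00428). Hoxa4 had 21.1%, 21.6% and 23.5%, then 29.0%, 33.4% and 34.4% (10.2 points, 0.00491), Hoxa6 28.9%, 25.9% and 27.1%, then 35.2%, 36.7% and 35.1% (8.35 points, 0.00489), and Hoxa2 21.0%, 20.3% and 20.3%, then 27.8%, 30.3% and 31.9% (9.46 points, 0.00552). These loci are not independent, because the span of Hoxa3 (6:52169059-52213067) contains Hoxa4, Hoxa5 and Hoxa6 and the flanks overlap. The 5 kept an adjusted p under 0.05 when any one mouse of the compared groups was left out (highest 0.0247).

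Hoxd4 followed, with 23.5%, 21.8% and 24.0% in saline and 27.8%, 29.8% and 31.6% in OVA mice (6.63 points, adjusted p = 0.0135), and Hoxb4, with 27.6%, 29.6% and 29.5%, then 33.1%, 36.6% and 37.2% (6.76 points, 0.0219). Smaller rises passed for Hoxa10 (2.42 points, 0.0282), a gene of the uterus and of limb patterning, Hoxd3 (2.66 points, 0.0312), Hoxc11 (0.890 points, 0.0383), Hoxb3 (4.81 points, 0.0398), Hoxc12 (1.29 points, 0.0478) and Hoxa11 (2.46 points, 0.0493). Hoxa7 fell by 2.76 points (26.2%, 27.6% and 25.2% to 23.4%, 24.7% and 22.6%, 0.0421). Hoxa9, which acts in blood progenitors, had the next largest difference downward, -2.01 points (adjusted p = 0.0607). Each of these 9 calls was lost without at least 1 mouse, and the count of called loci, 14, was 5 to 8 without any one of saline replicates 1, 2 and 3 or OVA replicates 2 and 3, and 13 without OVA replicate 1.

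**Figure D3:**
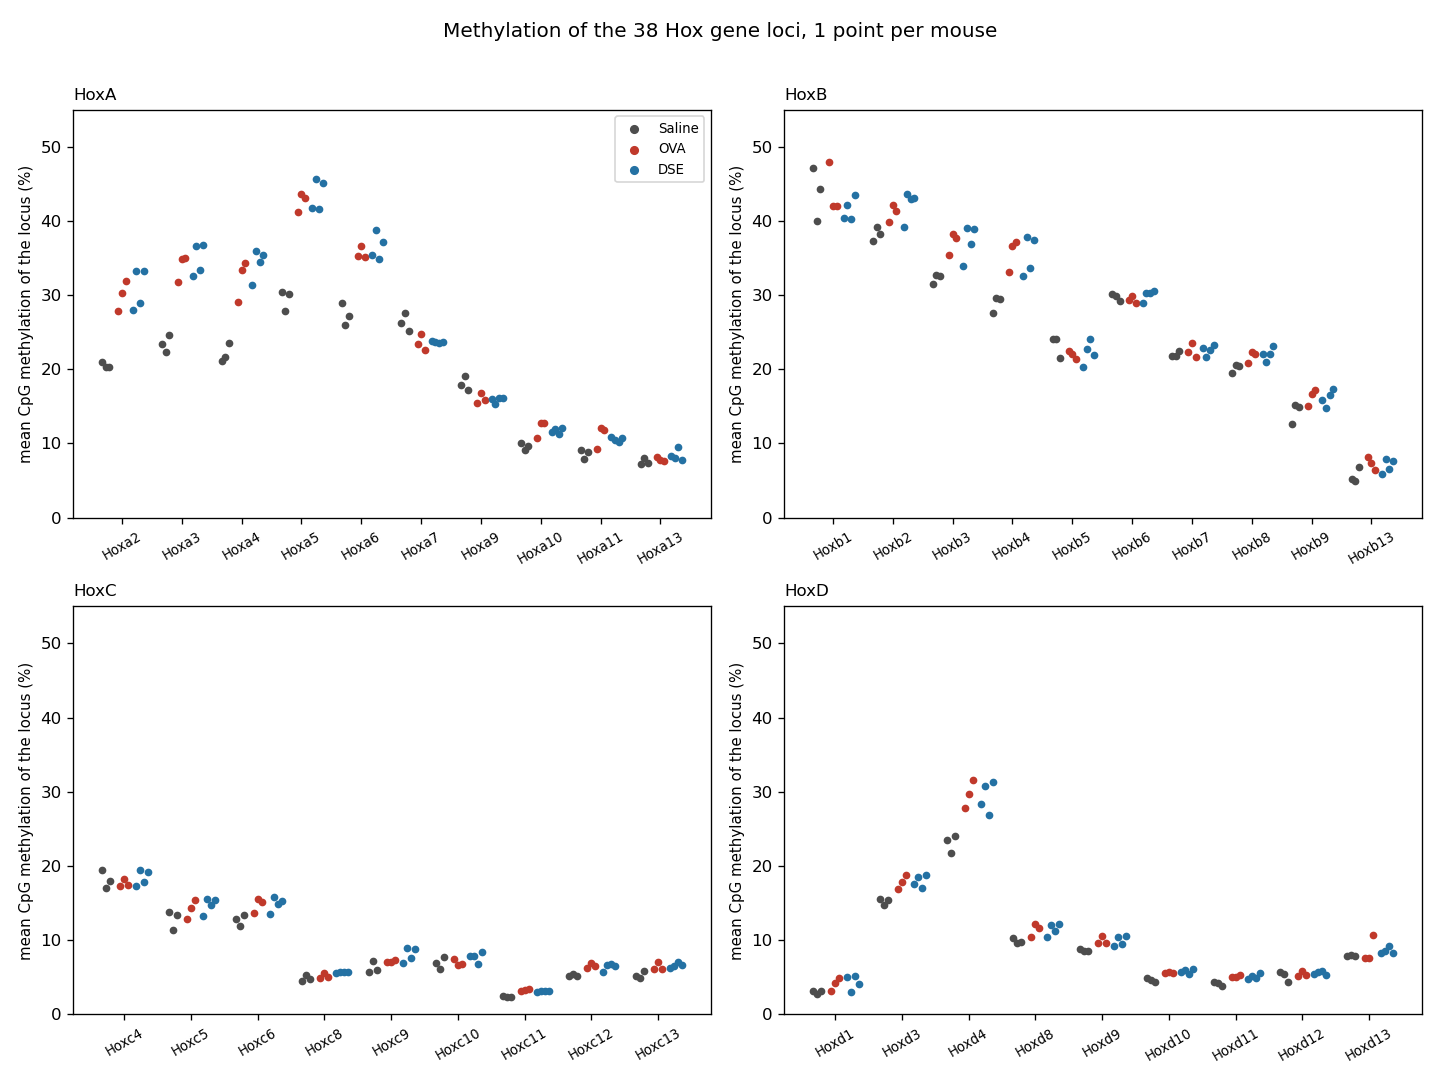
Mean CpG methylation (%) of the 38 Hox gene loci, with genes on the x axis, 1 panel per cluster and 1 point per mouse in saline, OVA and DSE. At Hoxa2 to Hoxa6 the OVA and DSE points lie above all saline points, and at Hoxa5 they lie between 41.2% and 45.6% against 27.8% to 30.4%.

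At the promoters 10 of 37 members were higher and 1 was lower in OVA vs. saline, where 5.09% of 19126 promoters were higher and 2.74% lower. Hoxa2 was at 10.4%, 9.1% and 10.3% in saline, 19.9%, 22.7% and 24.2% in OVA and 19.6%, 25.5%, 22.3% and 24.4% in DSE mice (adjusted p = 0.00186). Hoxa5 was at 29.1%, 25.5% and 27.4%, then 41.9%, 42.6% and 44.7%, then 42.9%, 46.2%, 41.4% and 47.7% (0.00195). In both every saline mouse was below every exposed mouse, the OVA and DSE mice overlapped, and the call of OVA vs. saline held without any one mouse of the compared groups. Hoxa4 (0.0123), Hoxa10 (0.0191), Hoxc13 (0.0196), Hoxc11 (0.0253), Hoxd12 (0.0345), Hoxc6 (0.0353), Hoxb3 (0.0464) and Hoxb4 (0.0488) also rose, by 1.05 to 8.40 points. The promoter of Hoxa3, whose start lies between Hoxa6 and Hoxa7, fell, with 18.0%, 17.8% and 18.3% in saline and 14.6%, 15.3% and 13.5% in OVA mice (0.0191), although the locus of the gene rose. The count of 11 was 3 to 6 without any one of saline replicates 1, 2 and 3 or OVA replicates 2 and 3, and 12 without OVA replicate 1.

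The anterior HoxA windows differed from windows of like methylation elsewhere. Of the windows at 10% to 30% in saline, the 42 of anterior HoxA had a median difference of 16.7 percentage points in OVA vs. saline, all 42 were higher, and 81.0% by at least 10 points. Over the whole series 54577 windows were in this range, with a median of 1.44 points and 11.9% higher by at least 10, and near the other developmental transcription factor genes the median was 0.563 points. Of windows under 10% in saline, the 15 of anterior HoxA had a median difference of 0.552 points. These are descriptions of the windows and carry no test.

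The effect of the extract was examined by DSE vs. OVA, which shares the OVA mice with the comparison above. The Hox clusters differed little between these groups. The likelihood ratio test called 0 of 607 Hox windows higher and 2 lower, where it called 0.898% of all windows higher and 0.725% lower. limma called 0 of 600 (24 had an unadjusted p under 0.05), where it called 0.347% higher and 0.0711% lower in all windows, and the F test called 0 of 607 (26 unadjusted). The 2 lower windows overlap near Hoxb1 (11:96363501-96365000) and hold the same 95 to 182 calls per mouse, so that they are 1 measurement. It was 74.0%, 56.4% and 53.7% in OVA and 45.6%, 55.8%, 46.4% and 56.5% in DSE mice, and 62.1%, 37.5% and 61.0% in saline mice, so the groups overlapped. Both calls were lost without DSE replicate 1.

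No member locus passed limma in DSE vs. OVA (0 of 38 at an adjusted p under 0.05, 0 at an unadjusted p under 0.05), where 0.0427% of all loci were higher and 0.00914% lower. For Hoxa5 the difference was 0.868 percentage points, with a 95% interval of -1.83 to 3.57, and for Hoxa3 0.950 (-1.85 to 3.75). The intervals therefore exclude a fall of 10 points, the size of the rise in OVA vs. saline. The 2 largest rises and the 2 largest falls were in Hoxa4 (1.97 points, -1.19 to 5.13), Hoxb2 (1.08 points, -1.42 to 3.58), Hoxb1 (-2.42 points, -6.56 to 1.72) and Hoxa11 (-0.505 points, -2.01 to 1.00). The median over the members was 0.104 points, and -0.0123 over all genes.

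Of the promoters, 1 of 37 was higher in DSE vs. OVA and 0 were lower, where 2.47% of all promoters were higher and 0.173% lower. This count is near the share over all promoters. The promoter was that of Hoxa3, at 14.6%, 15.3% and 13.5% in OVA and 17.7%, 18.2%, 17.1% and 16.3% in DSE mice (2.88 points, 95% interval 1.41 to 4.34, adjusted p = 0.0485). The saline mice were at 18.0% ± 0.272. The call was lost without any one mouse of either group except DSE replicate 4. It was also lost with the replicate number as a block, and with promoters from 2 kb before to 500 bp after the start. The promoter of Hoxa5 differed by 1.51 points (-2.10 to 5.11) and that of Hoxa2 by 0.677 points (-2.52 to 3.87).

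**Figure D4:**
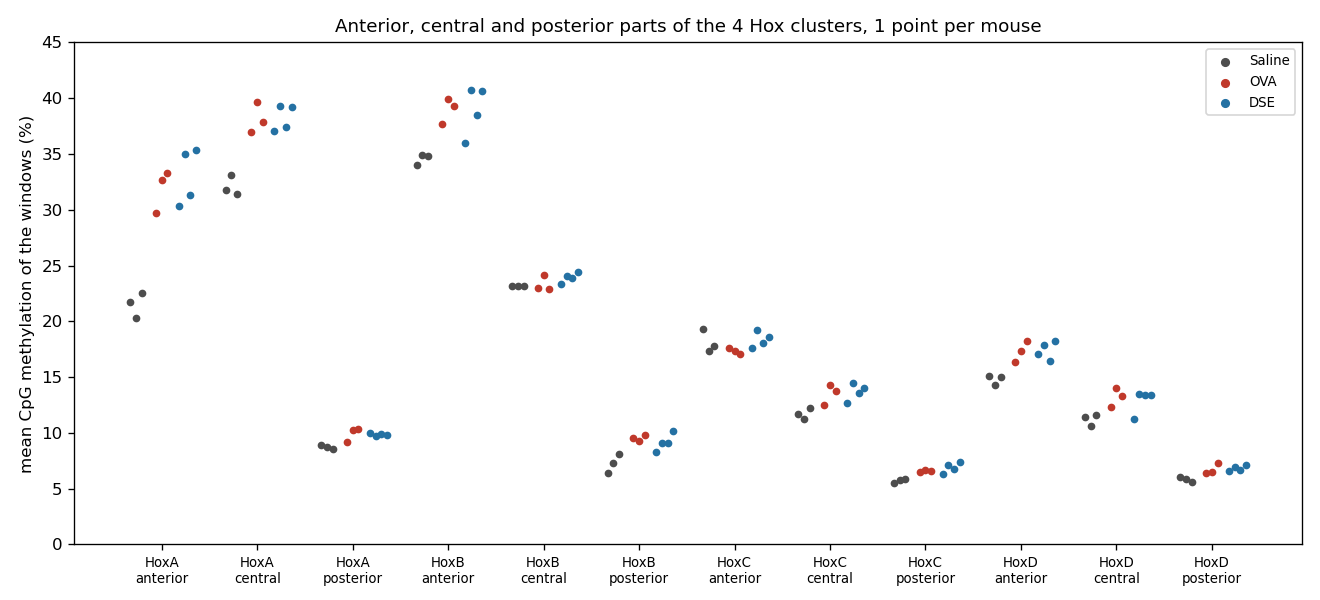
Mean CpG methylation (%) of the windows in the anterior, central and posterior section of each cluster, 1 point per mouse in saline, OVA and DSE. In anterior HoxA the saline mice lie at 20.3% to 22.5%, the OVA mice at 29.7% to 33.3% and the DSE mice at 30.4% to 35.4%.

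DSE vs. saline asks what remained different from the control in the treated mice, and it shares the saline mice with OVA vs. saline. Anterior and central HoxA were again the part that was more methylated. Of 607 Hox windows, 91 rose and 6 fell (14.99% and 0.988%), where 4.95% of all windows rose and 3.07% fell. limma called 101 higher and 2 lower of 600, where it called 4.58% of all windows higher and 2.68% lower, and the F test called 0 of 607 (197 unadjusted, lowest adjusted p = 0.0751). In anterior HoxA 52 of 77 windows rose, in central HoxA 13 of 27 and in posterior HoxA 3 of 66, with median differences of 13.6, 7.64 and 0.330 points. In HoxB 17 of 83 anterior windows rose, in HoxD 5 of 61, and in HoxC 0 of 131 (limma: 9 of 130). The longest run again lay at 6:52165001-52181500.

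In HoxB 2 windows named here were called in DSE vs. saline but not in OVA vs. saline. The first, an intron of Hoxb9 (11:96273501-96274500), had 2.3%, 23.0% and 14.9% in saline, 27.1%, 14.5% and 44.4% in OVA and 29.9%, 32.4%, 24.6% and 40.0% in DSE mice. The second, over exons of Hoxb5 and its antisense gene (11:96306001-96307000), was lower, with 56.9%, 71.0% and 39.3% in saline, 26.1%, 42.6% and 35.7% in OVA and 27.9%, 23.4%, 34.7% and 30.6% in DSE mice, at 14 to 141 calls per mouse. The saline mice of both windows were far apart. The first had a limma adjusted p = 0.121, and the second had too few calls in some mice for limma.

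Per gene, 17 loci were higher and 2 lower in DSE vs. saline, where 14.1% of all loci were higher and 4.38% lower, and the median difference was 1.35 points against 1.05 over all genes. Hoxa5 led again (14.1 points, 95% interval 11.4 to 16.8, adjusted p = 0.000831), followed by Hoxa3 (11.4 points, 0.00207), Hoxa4 (12.2 points, 0.00260), Hoxa6 (9.24 points, 0.00260) and Hoxa2 (10.3 points, 0.00299). Hoxd4 (6.19 points, 0.00957), Hoxb4 (6.51 points, 0.0146), Hoxd3 (2.74 points, 0.0174), Hoxb3 (4.89 points, 0.0242) and Hoxa10 (2.07 points, 0.0271) came next. Hoxa7 fell by 2.69 points (0.0297) and Hoxa9 by 2.15 points (0.0319). Hoxb1 had a difference of -2.21 points (95% interval -6.35 to 1.93, adjusted p = 0.426). Hoxb2, Hoxc6, Hoxc9, Hoxc11, Hoxc12, Hoxc13 and Hoxd10 passed with rises of 0.768 to 3.95 points. The count of 19 was 8 to 11 without any one of saline replicates 1, 2 and 3 or DSE replicates 2, 3 and 4, and 21 without DSE replicate 1.

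At the promoters 12 of 37 members were higher and 0 lower in DSE vs. saline, where 14.3% of all promoters were higher and 3.34% lower. Hoxa2 (12.97 points, adjusted p = 0.00128) and Hoxa5 (17.2 points, 0.00128) led. Hoxa4 (0.00237), Hoxc6 (0.00283), Hoxc13 (0.00865), Hoxb3 (0.0149), Hoxa10 (0.0175), Hoxc12 (0.0195), Hoxd9 (0.0291) and Hoxd12 (0.0335) followed. The share of member promoters called, 12 of 37, was above the background, while for several of them the rise was under 2 points. The count was 7 without any one saline mouse and 8 to 11 without any one DSE mouse.

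Other genes of the Hox system were counted at their loci in the same way, against the 9.14% of all loci that were higher and the 3.28% that were lower in OVA vs. saline. Of 11 genes at the ends of the clusters or inside them, 5 were higher in OVA vs. saline: Evx1, a homeobox gene beside Hoxa13 (13.4% to 15.7%, adjusted p = 0.02798), Hotairm1, a non-coding RNA gene at the anterior end of HoxA (19.1% to 26.6%, 0.00808), Mir10a (19.8% to 24.6%, 0.0293), Mir10b (24.1% to 33.2%, 0.00786) and Mir196a-1 (10.3% to 14.2%, 0.0234). Those other than Evx1 use windows that the members also use. The same 5 passed in DSE vs. saline and none in DSE vs. OVA. Of 9 cofactors of the TALE class, the Pbx, Meis and Pknox genes whose proteins bind DNA together with Hox proteins, 0 passed in any comparison at the loci. Of 16 regulators of Hox expression, 5 were higher in OVA vs. saline: Cdx1, Cdx2, Rara, Rarg and Cyp26a1, which act in posterior patterning and retinoic acid signalling. Ezh2, the methyltransferase of a Polycomb complex, was lower, from 35.4% ± 1.43 to 28.5% ± 2.40 (0.0156). Of 3 ParaHox genes Gsx1 was higher (2.37% to 3.74%, 0.0389). Of the 56 developmental transcription factor genes outside the clusters 6 were higher and 1 lower, which is near the share over all loci.

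Markers of some cell types also differed between the groups. The promoters of 8 leukocyte genes (Ptprc, Lcp1, Lcp2, Laptm5, Coro1a, Spi1, Cd53 and Vav1, 8 of 8 measured) had a mean of 49.2%, 49.0% and 48.7% in saline, 41.0%, 37.2% and 36.6% in OVA and 39.2%, 37.7%, 40.8% and 36.6% in DSE mice, and 6 of 8 fell in both comparisons with saline, where 2.74% (OVA vs. saline) and 3.34% (DSE vs. saline) of all promoters were lower, and 0 fell in DSE vs. OVA. OVA replicate 1, the OVA mouse with the highest leukocyte value, had the lowest anterior HoxA mean of its group (29.7%), and DSE replicates 1 and 3, with 39.2% and 40.8%, had the lowest of theirs (30.4% and 31.3%). The saline mice did not follow this order. Saline replicate 1, with the highest leukocyte value, had an anterior HoxA mean of 21.8%, and the lowest mean, 20.3%, was that of saline replicate 2. Of 3 eosinophil promoters none was called, with means of 65.1% in saline, 60.6% in OVA and 57.8% in DSE mice. Of 2 endothelial promoters 1 rose in OVA vs. saline, where 5.09% of all promoters did, with means of 32.8%, 39.5% and 35.4%, and of 5 epithelial promoters 0 rose in that comparison, with means of 19.7%, 20.1% and 20.6%. The T cell (1 of 4 measured), B cell (3 of 3), mesenchyme (4 of 5) and non-lung (5 of 6) promoters had no call in OVA vs. saline. At the loci, 3 of 4 endothelial, 3 of 7 epithelial and 1 of 5 non-lung genes were higher in OVA vs. saline (9.14% of all loci), and 4 of 8 leukocyte, 2 of 4 eosinophil and 1 of 5 mesenchyme genes were lower (3.28% of all loci), while 0 of 3 T cell and 0 of 3 B cell genes were called. The part of the cell mixture in the Hox differences was not tested.

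**Figure D5:**
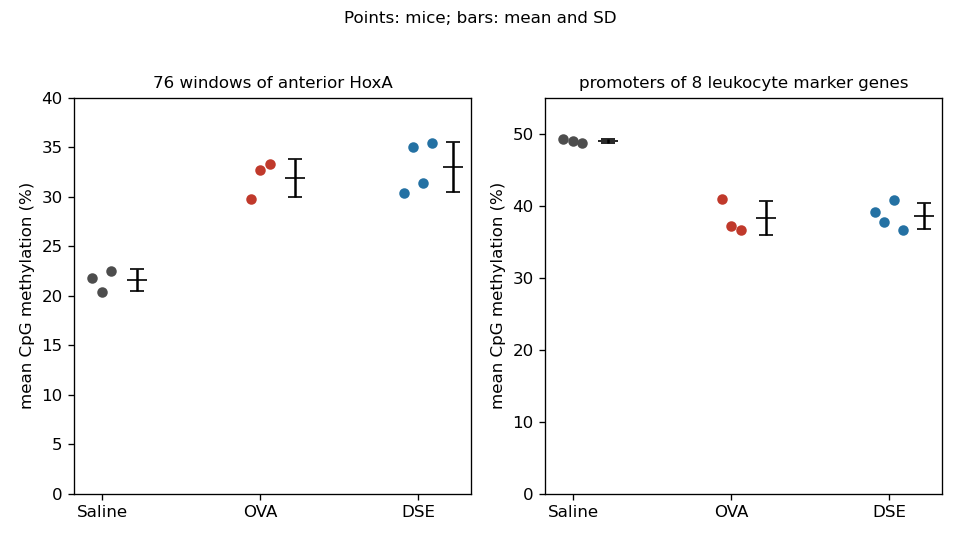
Mean CpG methylation (%) of the anterior HoxA windows and of the promoters of 8 leukocyte genes, 1 point per mouse with the mean and SD of saline, OVA and DSE. Anterior HoxA is higher and the leukocyte promoters are lower in all OVA and DSE mice than in all saline mice.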

How the data were processed

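Lung DNA of 10 mice (3 saline, 3 OVA, 4 DSE, the last labelled Herb) was profiled by SureSelect Methyl-seq. The deposited values are counts that the authors did not normalize. They give total, methylated and unmethylated CpG calls by mouse for overlapping windows (1000 bp long, starts 500 bp apart), each covered by 10 or more calls in all mice. The submitters' processing notes name cutadapt 1.10, Bismark 0.19.0 and methylKit 1.0.0 with mm10 (GRCm38), and the paper gives other versions of these tools. Total calls per mouse were 306656737 to 410836272, with 883845 to 1197907 in Hox windows and a median of 1212 to 1698 per Hox window (409 over all windows). No column of per-sample values was left unused.

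Windows were tested over the whole table by a logistic model with a likelihood ratio test on mice with at least 20 calls, with at least 2 such mice per group, and by limma 3.58.1 (R 4.3.3) on M-values with a pseudocount of 1. Loci with at least 3 windows and promoters were tested by limma with a trend over all genes, on the M-value of the mean percentage with an offset of 0.5. All p-values were adjusted by Benjamini-Hochberg over the whole table. limma used all 10 mice, and the other tests the mice of the compared groups. The likelihood ratio test was checked on calls simulated without spread between mice, so that check cannot show the effect of this spread. limma on windows was checked on simulated calls with added spread. The F test was not checked in this way. Python 3.11.15 was used otherwise. Means of clusters and sections got no test. The 95% intervals of differences come from the same limma fit on percentages.

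The members and all gene lists were chosen with earlier results of these data known. The named windows, loci and promoters are those lowest and highest in saline per cluster, the largest called window per comparison, cluster and direction among those whose mice do not overlap, up to 10 with a limma adjusted p under 0.05 per comparison, and the 2 loci with the largest rise and fall. Further called windows and runs were named after their values were seen. Mice with the same replicate number showed no clear common deviation (correlations of -0.019 to 0.0369, against -0.0339 to 0.0255 between different numbers). The highest was that of OVA replicate 1 with DSE replicate 1. No pairing was used in the main tests, and these correlations cannot exclude one. Alternatives were other minimums of calls, thresholds, tests, flanks, promoter limits and ways to average, a replicate block, and each mouse left out in turn.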

Additional observations from a re-analysis of the deposited data

Results flagged for a closer look

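In the DSE group, the only one of 4 mice, the highest or lowest mouse was compared with the others by Dixon's test at 38 Hox loci, 37 promoters and 23 named windows and in the means of the 4 clusters. Of these 102 comparisons 6 had a mouse that stood apart, where chance gives about 1 in 20. DSE replicate 2 was lowest at the Hoxa9 locus (15.4%), highest at the Hoxa6 promoter (41.9%) and highest at the Hoxc13 promoter (5.61%). DSE replicate 1 was lowest at the Hoxb2 locus (39.1%), lowest at the Hoxc8 locus (5.55%) and highest at the Hoxd3 promoter (8.10%).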

How the results depend on the processing

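No called result turned its direction under any alternative. The 91 Hox windows called in OVA vs. saline were 44 with windows that do not overlap, 3 at a difference of 20 percentage points, and 0 with the F test or with limma at 0.01 and 10 points. The 2 of DSE vs. OVA became 1, 0, 0 and 0 under these 4 settings, 0 with limma at 0.05 and 0 without a flank, and the 97 of DSE vs. saline became 49, 14, 0 (F test) and 18 (limma at 0.01). Leaving out 1 mouse gave 75 to 98, 0 to 4 and 85 to 109 windows, 5 to 13, 0 to 0 and 8 to 21 loci (14, 0 and 19 with all mice), and 3 to 12, 0 to 1 and 7 to 11 promoters (11, 1 and 12). These fits have fewer mice. Loci from pooled calls gave 6 in DSE vs. OVA (Hoxa13, Hoxb2, Hoxb6, Hoxb7, Hoxd8 and Hoxd9, all higher). The share over all loci was not taken for pooled calls, so these 6 cannot be set against a background. Promoters from 2 kb before to 500 bp after the start gave 0 in DSE vs. OVA. The cause of these changes in count was not tested.

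Pooling the calls over windows, which weights windows with many calls, moved the means of saline, OVA and DSE to 16.0%, 21.1% and 23.0% in HoxA, 20.1%, 21.8% and 23.7% in HoxB, 7.12%, 7.75% and 8.27% in HoxC and 7.43%, 8.33% and 9.18% in HoxD. The difference of DSE vs. OVA then was 1.85 points in HoxA (0.496 without pooling), 1.88 in HoxB (0.0893) and 0.852 in HoxD (0.0327), and that of OVA vs. saline 1.72 in HoxB (2.69) and 0.900 in HoxD (1.73). Without the flank, HoxA had 26.1% in OVA and 26.7% in DSE mice, with differences from saline of 7.96 and 8.54 points (6.11 and 6.61 with it). HoxB had 26.0% in saline and 28.9% in OVA, HoxC 10.8% in OVA with a difference of 1.15 points (0.819), and HoxD 9.17%, 11.4% and 11.2%. With windows that do not overlap HoxC had 9.06%, 9.84% and 10.1% and HoxD 9.47%, 11.1% and 11.2%. With at least 50 calls HoxC had 8.98% in saline and 9.77% in OVA.

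The share of windows with low methylation in saline was 42.0%, 37.6%, 71.5% and 71.0% in HoxA to HoxD when under 10% was required, and 50.9%, 47.6%, 86.9% and 82.4% with the mean of all mice. It was 88.7% in HoxC with at least 50 calls. The longest run was 4000 bp in HoxA, 6000 bp in HoxB and 8500 bp in HoxD under 10%, and 4500 bp in HoxC and 7500 bp in HoxD with at least 50 calls.

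With the replicate number as a block, 93, 2 and 97 windows were called in OVA vs. saline, DSE vs. OVA and DSE vs. saline, with 8, 0 and 9 loci and 6, 0 and 6 promoters. The labels do not say whether the replicate numbers pair the mice, and the correlations given above cannot exclude it. Windows of few calls limit single values, and 3 or 4 mice per group limit every comparison.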
